A study of Mus musculus with 6 samples.

Results

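A heart muscle cell contracts when calcium is released from the sarcoplasmic reticulum (SR), an internal membrane store, and relaxes when the calcium is pumped back. Calcium leaves the store through the ryanodine receptor Ryr2, whose opening is triggered by calcium entering across the cell membrane. It returns through the pump SERCA2 (Atp2a2), which the small membrane proteins phospholamban (Pln) and sarcolipin (Sln) inhibit, and leaves the cell through the sodium-calcium exchanger (Slc8a1). Inside the store calcium is held by calsequestrin, in a cardiac (Casq2) and a skeletal muscle (Casq1) form. Triadin (Trdn) and junctin, a product of the Asph gene, tie calsequestrin to the release channel, and junctophilin 2 (Jph2) holds the store close to the cell membrane.

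These 10 genes, of 18193 named on the array by a single-symbol probe set, were chosen by symbol as the set for calcium release, uptake, buffering and exchange, and all probe sets that the platform annotation gives to them alone were used. There were 33 such probe sets among 45037 in all, and 0 probe sets carried a member together with another symbol. A probe set is a group of short probes on the array that together give 1 signal, on a linear scale without a physical unit. Probe sets of 1 gene can read the same or different transcripts of it and are not replicates of a condition. The level of a probe set was not read as higher or lower than that of another.

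The cells were HL-1, an established line of mouse cardiomyocytes that came from an atrial tumour and keeps dividing in culture. Confluent cultures stood for 8 hours in hypoxia at 1% oxygen (3 arrays) or in normoxia at 21% oxygen (3 arrays), and total RNA was measured on one-colour Affymetrix arrays. Whether the 3 samples of a group were grown apart is not in the labels, so the p-values rest on the spread between arrays alone, some or all of which can be technical. Because whole cultures were measured, fewer cells of a type and less RNA per cell cannot be told apart.

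Of the 33 probe sets, 30 passed the filter on dim signals, a mean log2 signal above the median of all probe sets, which equals a geometric mean signal of 14.1. Each of the 10 genes had at least 1 tested probe set. The 3 untested ones, 1421126_at for Ryr2, 1420883_at for Sln and 1420210_at for Slc8a1, had signals between 1.2 and 35.8 on all arrays. Beside a mean over all probe sets of Sln, where this is said, they enter only an alternative fit without the filter.

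The atrial label was set against marker lists. Of 7 atrial markers 6 passed the filter, and the summed signal of all 7 ran between 19116 and 21541 in hypoxia and between 20184 and 21743 in normoxia. The atrial connexin Gja5 had mean signals of 6.13 in hypoxia and 3.57 in normoxia, under the filter. Of 8 skeletal muscle markers 5 passed, with a summed signal of the whole list of 286 to 342 in hypoxia and 290.2 to 377 in normoxia, and the skeletal myosins Myh1 and Myh4 lay under the filter. Of 4 ventricular markers 2 passed (331 to 421 in hypoxia, 367 to 468 in normoxia), and of 5 smooth muscle markers 4 (12177 to 15120 in hypoxia, 11450 to 13338 in normoxia). The smooth muscle myosin Myh11 had mean signals of 5.77 in hypoxia and 1.7 in normoxia, under the filter. Of 5 fibroblast markers 3 passed (115.0 to 225 in hypoxia, 126 to 138 in normoxia), and of 4 endothelial markers 1 (70.9 to 124 in hypoxia, 80.4 to 96.7 in normoxia). No marker passed the test. The arrays of both groups did not overlap for 6 tested markers, which the sums do not show. They were 2 of 6 atrial, 1 of 2 ventricular, 1 of 5 skeletal muscle and 2 of 4 smooth muscle markers. Over all tested probe sets the share was 16.5%. Of the atrial list these were Nppa, atrial natriuretic peptide, at a log2 fold change of 0.76 (SE 0.23), and Myl4, an atrial myosin light chain, at -0.12 (SE 0.08, or -0.01 after median centring). The smooth muscle proteins Tagln and Cnn1 had 0.37 (SE 0.12) and 0.49 (SE 0.17), the ventricular light chain Myl3 -0.80 (SE 0.21) and the skeletal troponin Tnnc2 -0.32 (SE 0.18). Other markers of these lists, with overlapping groups, went the other way. Among them were Tbx5 (-0.31) and Nr2f2 (-0.64) beside Nppa, Smtn (-0.38) beside Tagln and Cnn1, and Myl2 (0.08) beside Myl3. Beside Tnnc2 they were Ckm (0.81), Cacna1s (0.83) and Tnnt3 (0.19). Below 0 were 4 of 6 tested atrial, 1 of 2 ventricular, 2 of 5 skeletal muscle and 1 of 4 smooth muscle markers. The part of such cells in the results was not tested.

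Hypoxia was compared with normoxia in limma, fitted over all 22518 tested probe sets. A change was called at a Benjamini-Hochberg adjusted p under 0.05, and 0.608% of all tested probe sets were called, 0.533% higher and 0.0755% lower in hypoxia. Of the 30 member probe sets 0 were called, with a smallest adjusted p of 0.126 in limma. At an unadjusted p under 0.05 there were 10 of 30, against 10.9% of all tested probe sets. The arrays of both groups did not overlap for 11 member probe sets (36.7%), against 16.5% of all. In 9 of these 11 the hypoxia arrays lay below the normoxia arrays (9.06% of all tested probe sets), and in 2 above (7.48%). The 9 came from 5 genes, 4 from Atp2a2 and 2 from Pln, so the counts over probe sets can repeat some transcripts.

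By gene, the fold changes of the 10 members differed in direction, with 0 of the 30 probe sets called. The pump, phospholamban and both calsequestrins had lower mean signals in hypoxia on all of their probe sets, though the brightest of the pump was at 0.02 after median centring. Sarcolipin had a higher signal in hypoxia, and the 6 probe sets of Asph all had fold changes above 0, of which that of 1425274_at was -0.21 without normoxia replicate 3. The exchanger had its 3 tested probe sets below 0, of which 1437675_at alone had separate groups and 1440201_at was at 0.05 after median centring. The release channel, triadin and junctophilin 2 overlapped between the groups on every probe set tested. The median log2 fold change was -0.09 over the 30 probe sets, beside -0.04 over all tested ones. Centring each array on its median moved every log2 fold change up by 0.11, which put these medians at 0.02 and 0.07. The difference between both medians was -0.05 under either scaling.

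**Figure D1:**
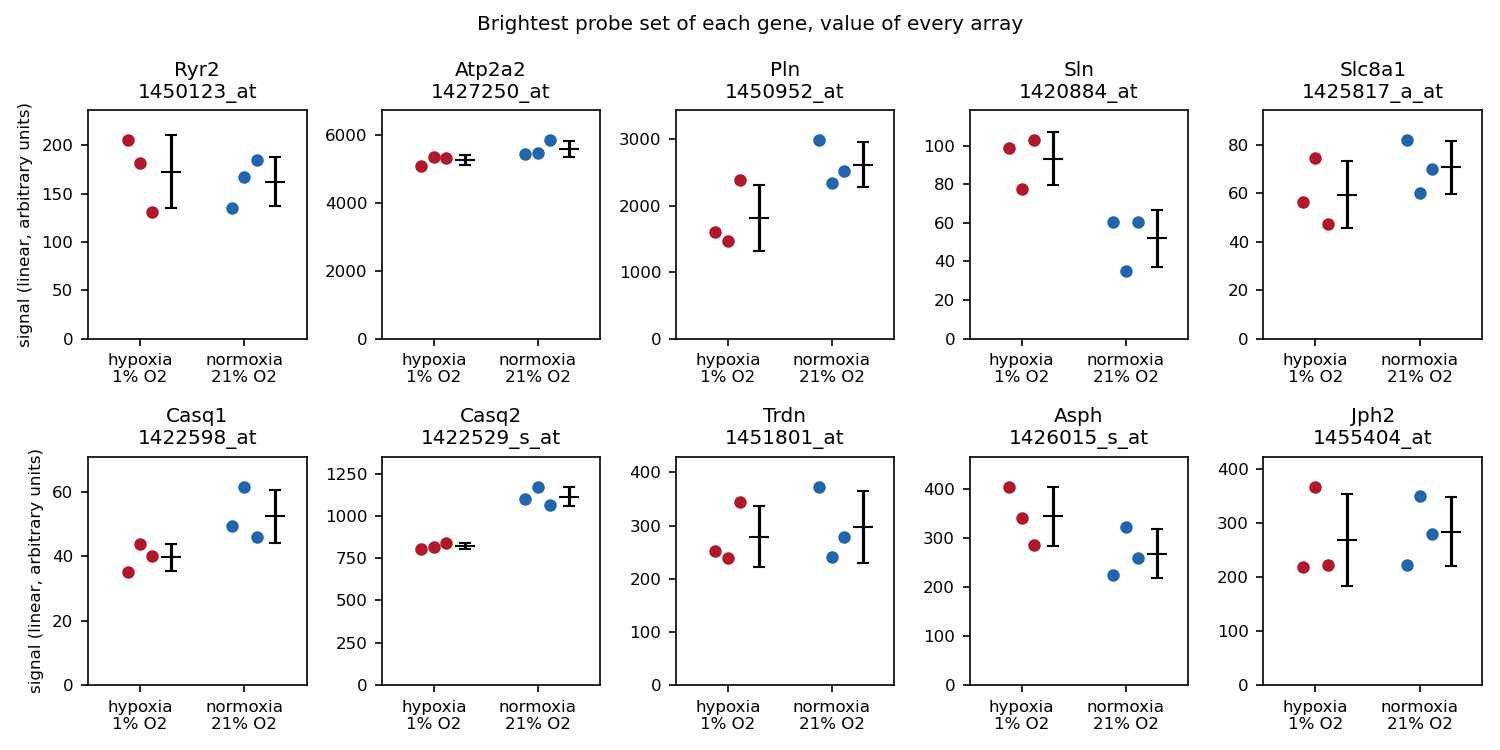
Signal of the brightest probe set of each of the 10 genes on every array (y axis, linear, arbitrary units), hypoxia in red and normoxia in blue, with the mean and SD of 3 arrays in black beside the points. For Sln every hypoxia array (77.4 to 103) lies above every normoxia array (34.9 to 60.4), for Casq2 every hypoxia array (804 to 838) lies below (1062 to 1173), and the groups overlap for Ryr2, Pln, Slc8a1, Trdn, Asph and Jph2.

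Ryr2, the channel through which calcium leaves the store, had signals of 205, 181 and 131 on the hypoxia arrays, against 135, 167 and 185 on the normoxia arrays (probe set 1450123_at). The groups overlapped over almost their whole ranges. The log2 fold change of hypoxia over normoxia was 0.07 (SE 0.21, adjusted p = 0.921 in limma), and its 95% confidence interval ran between 0.762-fold and 1.46-fold. Its direction turned without hypoxia replicate 1 (-0.06) and without normoxia replicate 1 (-0.05). At this precision neither a lower nor a higher level of the channel's transcript was detectable on this probe set. The dim, untested 1421126_at had 10.8, 7.4 and 2.5 in hypoxia, against 8.9, 35.8 and 13.4 in normoxia, with overlap. In the fit without the filter its log2 fold change was -1.47 (SE 0.79, adjusted p = 0.690 in limma).

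Atp2a2, the pump that refills the store, was measured by 6 probe sets, all of which passed the filter. Its brightest probe set, 1427250_at, had 5085, 5359 and 5319 in hypoxia, against 5431, 5481 and 5853 in normoxia. The hypoxia arrays lay just below the normoxia arrays, with a log2 fold change of -0.09 (SE 0.08, or 0.02 after median centring) and an interval of 0.831-fold to 1.06-fold.

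The other 5 probe sets of the pump had larger differences in the same direction. Probe set 1416551_at had 4200, 4662 and 3570 in hypoxia, against 5152, 5726 and 6133 in normoxia. Probe set 1452363_a_at had 2847, 3067 and 2621 in hypoxia, against 3407, 3754 and 4379 in normoxia. Both showed every hypoxia array below every normoxia array. Their log2 fold changes were -0.46 (SE 0.12, adjusted p = 0.156 in limma) and -0.43 (SE 0.11, adjusted p = 0.188), with intervals of 0.609-fold to 0.871-fold and 0.621-fold to 0.887-fold. Neither interval reached 1, and neither probe set passed over the whole array. With array weights in the fit both passed (adjusted p = 0.0389 and 0.0435). That fit called 437 of all 22518 tested probe sets, 125 of them lower, against 137 and 17 without weights.

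Probe set 1427251_at of the pump had 865, 897 and 631 in hypoxia, against 916, 1359 and 1289 in normoxia. The groups again did not overlap, although hypoxia replicate 2 and normoxia replicate 1 stood close together (log2 fold change -0.57, SE 0.19). The dimmer 1437797_at and 1443551_at overlapped between groups, at -0.66 (SE 0.28) and -1.05 (SE 0.56). On the log2 scale the mean of all 6 probe sets was lower in each hypoxia array than in each normoxia array. The dim probe sets count equally in this mean. In a fit on such gene means over 11332 genes, added after seeing the data, the log2 fold change of Atp2a2 was -0.54 (SE 0.14, adjusted p = 0.147 in limma), 6.1 times the size given by its brightest probe set. Why the brightest probe set differs from the other 5 was not tested.

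**Figure D2:**
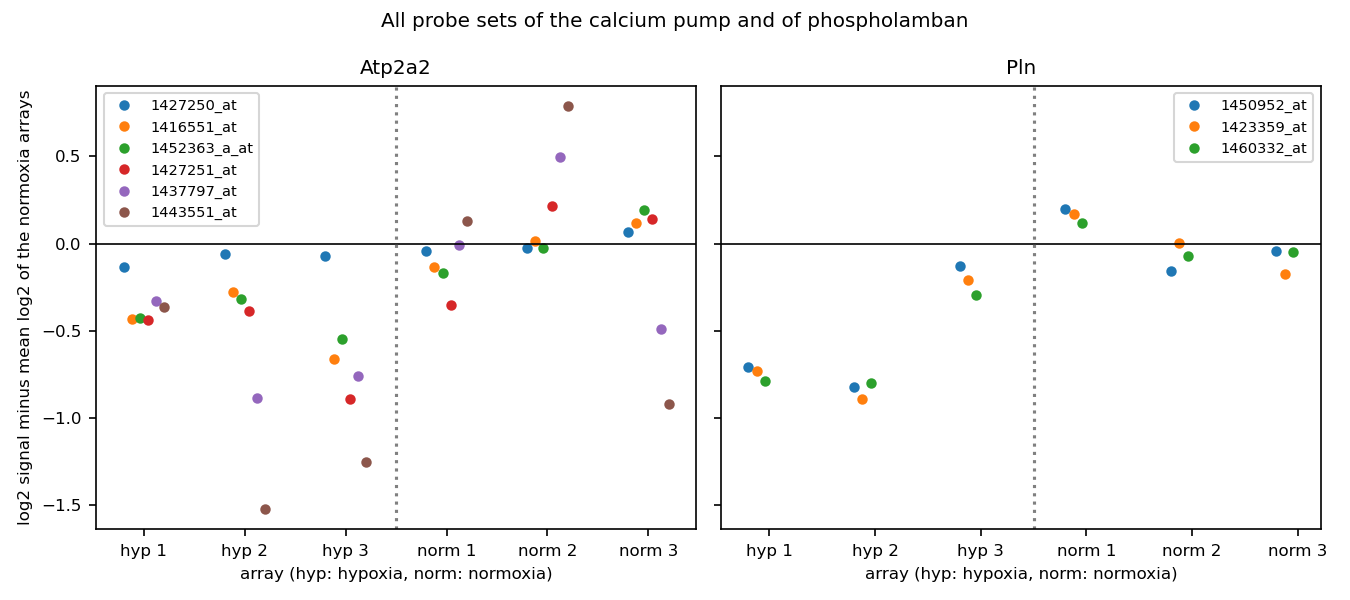
Log2 signal minus the mean log2 signal of the 3 normoxia arrays (y axis) for each array (x axis), with a colour for each probe set of Atp2a2 (left, 6 probe sets) and Pln (right, 3 probe sets). The brightest Atp2a2 probe set, 1427250_at, stays near 0 on the hypoxia arrays while the other 5 lie lower, and the 3 Pln probe sets lie close together on each array.

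Phospholamban, which inhibits the pump until it is phosphorylated, was read by 3 probe sets that gave nearly the same picture. Probe set 1460332_at had 1033, 1022 and 1450 in hypoxia, against 1931, 1694 and 1725 in normoxia. Probe set 1423359_at had 1084, 971 and 1561 in hypoxia, against 2025, 1808 and 1597 in normoxia. The brightest, 1450952_at, had 1597, 1476 and 2386 in hypoxia, against 2988, 2340 and 2526 in normoxia. Hypoxia replicate 3 was the highest hypoxia array on each probe set, and on the brightest it lay above normoxia replicate 2.

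The log2 fold changes of Pln were -0.63 (SE 0.15, adjusted p = 0.126 in limma), -0.61 (SE 0.18, adjusted p = 0.222) and -0.55 (SE 0.18, adjusted p = 0.283). In fold terms these were 0.647, 0.655 and 0.683, with intervals that together ran between 0.498-fold and 0.899-fold. Which side of the threshold they lay on depended on 1 array. Without hypoxia replicate 3 all 3 probe sets passed, with log2 fold changes of -0.79, -0.81 and -0.76 (adjusted p = 0.0192, 0.0325 and 0.0351). That fit called 149 of all 22518 tested probe sets, 17 of them lower. Of the 3 Pln probe sets, only 1460332_at passed with array weights (adjusted p = 0.0225), where 437 of all tested probe sets were called.

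Sarcolipin, a second inhibitor of the pump that is abundant in the atria, differed in the other direction. Its tested probe set, 1420884_at, had 99.0, 77.4 and 103 in hypoxia, against 60.4, 34.9 and 60.4 in normoxia. All hypoxia arrays were above all normoxia arrays. The fold was 1.84 (log2 fold change 0.88, SE 0.26, interval 1.23-fold to 2.74-fold), but it did not pass over the whole array (adjusted p = 0.231 in limma). The value varied with normoxia replicate 2, the lowest array, without which the log2 fold change was 0.61.

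The inhibitors were also set against the pump within each array, since a difference of log2 signals in 1 array does not depend on how that array was scaled. Only the difference between arrays carries meaning here, because the probe sets have no common scale. On the brightest probe sets, log2 Sln minus log2 Atp2a2 was -5.68, -6.11 and -5.69 in hypoxia, against -6.49, -7.30 and -6.60 in normoxia. All hypoxia arrays were higher, by 0.97 on average, with p = 0.1 in a two-sided exact permutation test, the smallest p that 3 against 3 arrays allow. Log2 Pln minus log2 Atp2a2 was -1.67, -1.86 and -1.16 in hypoxia, against -0.86, -1.23 and -1.21 in normoxia, with overlapping groups. The mean difference was -0.46 (p = 0.3, exact permutation test).

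These within-array differences depended on which probe set stood for the pump. With the mean over all probe sets of each gene, which for Sln includes the untested one, the value for Sln was 1.44 and that for Pln was -0.05. Against that mean, Pln and the pump differed between the groups by almost the same factor, and the difference between Sln and the pump was larger. The mean of the pump counts the dim 1437797_at (-0.66) and 1443551_at (-1.05) equally with the brighter probe sets. The geometric mean signal of 1443551_at, 14.6, was close to the filter of 14.1. A mean without the dim probe sets was not tested.

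Calsequestrin 2, the main calcium buffer of the cardiac store, varied little within each group. Probe set 1422529_s_at, whose suffix is given by the array maker to sets that can match several transcripts, had 804, 817 and 838 in hypoxia, against 1101, 1173 and 1062 in normoxia. The group means were 819.8 ± 17.4 in hypoxia and 1112 ± 56.2 in normoxia (n = 3 arrays each, SD). All hypoxia arrays lay below all normoxia arrays, with a gap wider than either group's range. The fold was 0.738 (log2 fold change -0.44, SE 0.11, interval 0.624-fold to 0.873-fold). It did not pass over the whole array (adjusted p = 0.147 in limma), and over all alternatives the adjusted p ran between 0.0645 with array weights and 0.521 after median centring.

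Calsequestrin 1, the form of fast skeletal muscle, was dim. Its probe set 1422598_at had 35.1, 43.7 and 40.0 in hypoxia, against 49.5, 61.6 and 45.9 in normoxia. The groups did not overlap, but hypoxia replicate 2 and normoxia replicate 3 were separated by little. The log2 fold change was -0.40 (SE 0.23, adjusted p = 0.574 in limma), with an interval of 0.533-fold to 1.08-fold.

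The exchanger Slc8a1, which removes calcium from the cell in return for sodium, had 3 tested probe sets that disagreed in size. Probe set 1437675_at had 49.8, 65.5 and 34.3 in hypoxia, against 88.6, 86.5 and 69.7 in normoxia. These groups did not overlap (log2 fold change -0.75, SE 0.26, adjusted p = 0.327 in limma). The brightest, 1425817_a_at, had 56.6, 74.4 and 47.3 in hypoxia, against 82.0, 60.3 and 69.9 in normoxia, and overlapped (-0.27, SE 0.23). This value was -0.44 without hypoxia replicate 2, -0.11 without hypoxia replicate 3, -0.15 without normoxia replicate 1 and -0.15 after median centring. The third, 1440201_at, overlapped as well, at -0.06 (SE 0.30). The mean over the 3 probe sets gave -0.36 (SE 0.22, adjusted p = 0.529).

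Among the proteins of the junction, Trdn was read by 6 probe sets, and all of them overlapped between groups. On the brightest, 1451801_at, signals were 253, 239 and 344 in hypoxia, against 373, 242 and 278 in normoxia (log2 fold change -0.09, SE 0.21, or 0.02 after median centring). On the log2 scale 4 others lay close to 0, with 0.02 for 1426144_x_at (SE 0.20) and 1451940_x_at (SE 0.21), 0.13 for 1426134_at (SE 0.25) and 0.16 for 1426142_a_at (SE 0.29). The sixth, 1426143_at, had -0.95 with an SE of 0.67. It held 96.4, 11.0 and 78.9 in hypoxia, against 77.2, 75.8 and 103 in normoxia, so that only hypoxia replicate 2 stood apart. Without hypoxia replicate 2 its log2 fold change was 0.05.

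Asph encodes the enzyme aspartate beta-hydroxylase as well as the junction proteins junctin and junctate, and the deposited values do not say which product a probe set reads. Its brightest probe set, 1426015_s_at, had 405, 341 and 285 in hypoxia, against 223, 322 and 258 in normoxia. The highest normoxia array lay inside the range of the hypoxia arrays (log2 fold change 0.36, SE 0.19, adjusted p = 0.533 in limma). Between the lowest log2 fold change, 0.05 for 1425274_at (SE 0.37), and the highest, 0.67 for 1436455_at (SE 0.37), lay 0.23 for 1425275_at (SE 0.30), 0.26 for 1420959_at (SE 0.18) and 0.30 for 1450058_at (SE 0.27). Only 1436455_at, a dim one, had separate groups, with 18.3, 28.3 and 26.4 in hypoxia, against 13.1, 14.7 and 17.5 in normoxia. Averaged over the 6 probe sets, the 3 hypoxia arrays lay above the 3 normoxia arrays, at 0.31 on the log2 scale (SE 0.16, adjusted p = 0.452).

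Junctophilin 2 had 219, 368 and 222 in hypoxia, against 223, 351 and 280.0 in normoxia on its brightest probe set, 1455404_at. The groups covered the same range (log2 fold change -0.10, SE 0.24, adjusted p = 0.912 in limma, or 0.01 after median centring). The second probe set, 1421453_at, gave -0.12 (SE 0.34), with hypoxia arrays spread between 46.5 and 137 and normoxia arrays between 76.9 and 95.1.

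**Figure D3:**
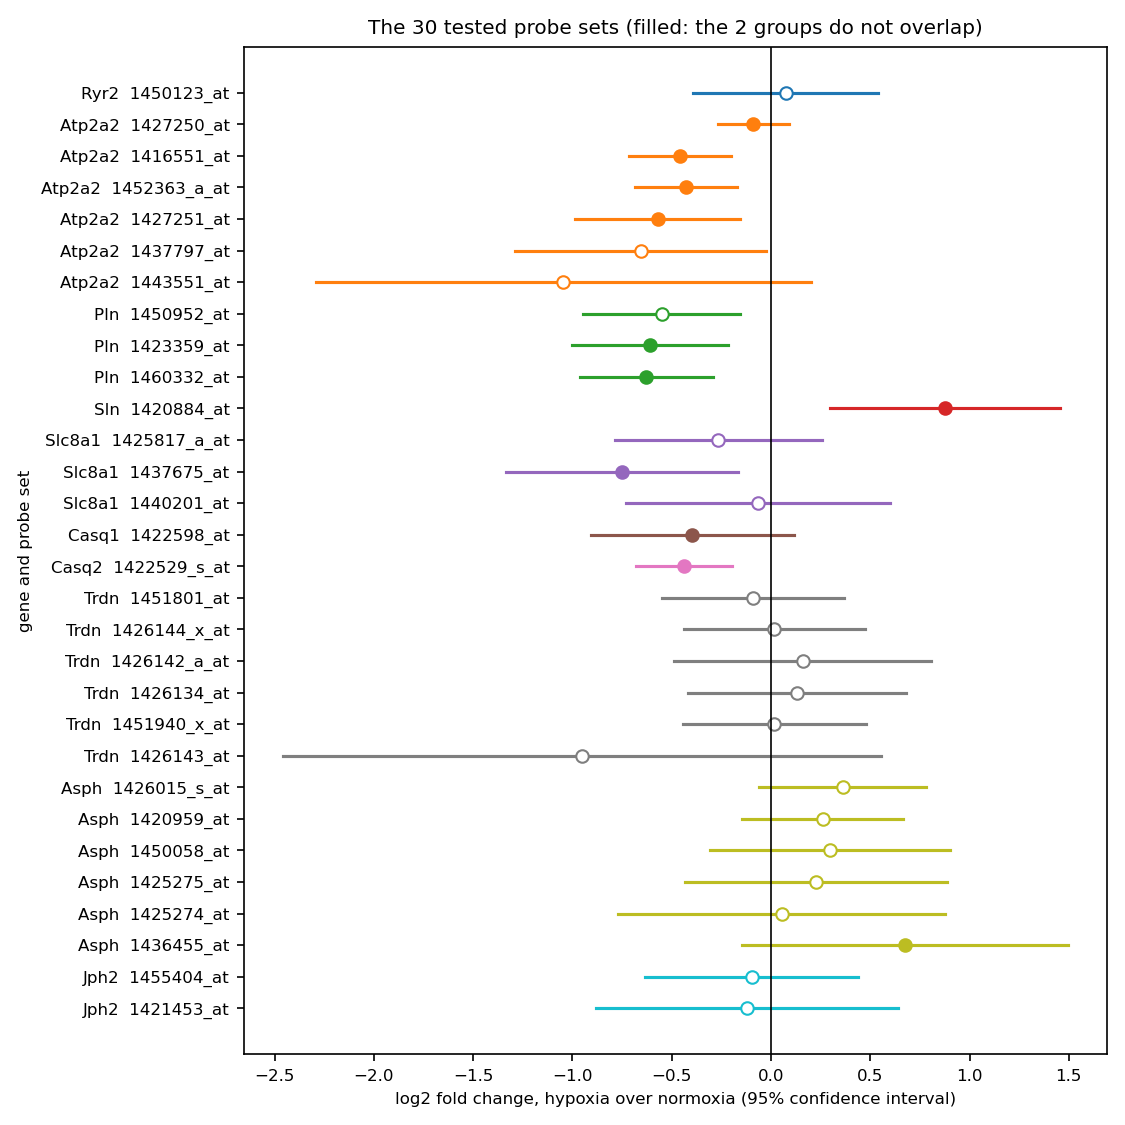
Log2 fold change of hypoxia over normoxia (x axis, point) with its 95% confidence interval (line) for the 30 tested probe sets, grouped and coloured by gene. Filled points mark the 11 probe sets whose groups do not overlap. Intervals of Pln, Sln, Casq2 4 of the 6 Atp2a2 probe sets and 1437675_at of Slc8a1 do not reach 0, and 0 of the 30 passed the test over the whole array.

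Averaging the tested probe sets of each gene left 7 of 10 members below 0 and 0 called, where 0.794% of 11332 genes were called in limma. The groups did not overlap for 6 of 10 members, 4 of them lower and 2 higher in hypoxia, against 18.7% of all genes. These were Atp2a2, Pln, Casq1 and Casq2 on the low side and Sln and Asph on the high side. At an unadjusted p under 0.05 there were 4 of 10 (12.9% of all genes): Atp2a2, Pln, Sln and Casq2. These counts are a description, since the members were chosen with earlier results of these data known.

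Promoter sequences, 250 bases before to 50 bases after the annotated start, were taken from RefSeq (GRCm38.p6) and were matched for 6 of the 10 genes (Ryr2, Pln, Slc8a1, Casq1, Casq2 and Jph2), with 2 starts for Jph2. Since oxygen was the variable, they were searched on both strands for ACGTG and GCGTG, the core letters of the element that hypoxia-inducible factors bind. Of all 32851 promoters 43.8% hold at least 1 such match. The promoters of Pln and Casq2, whose signals were lower in hypoxia, and of Ryr2, whose groups overlapped, are shown in lower case with matches in capitals, also where a match lies on the opposite strand.
Ryr2 (chr13:12106896-12107195, minus strand): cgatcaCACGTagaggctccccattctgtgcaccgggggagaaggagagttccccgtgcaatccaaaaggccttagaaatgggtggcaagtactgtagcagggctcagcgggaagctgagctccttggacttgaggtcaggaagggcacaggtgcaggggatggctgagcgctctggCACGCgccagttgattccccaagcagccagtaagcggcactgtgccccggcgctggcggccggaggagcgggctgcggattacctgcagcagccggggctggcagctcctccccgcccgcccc
Pln (chr10:53337436-53337735, plus strand): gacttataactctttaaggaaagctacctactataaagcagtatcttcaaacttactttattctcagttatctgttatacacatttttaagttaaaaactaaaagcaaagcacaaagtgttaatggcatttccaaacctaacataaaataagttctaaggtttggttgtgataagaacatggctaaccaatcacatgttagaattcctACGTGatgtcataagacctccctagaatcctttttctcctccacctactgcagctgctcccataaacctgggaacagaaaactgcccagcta
Casq2 (chr3:102086165-102086464, plus strand): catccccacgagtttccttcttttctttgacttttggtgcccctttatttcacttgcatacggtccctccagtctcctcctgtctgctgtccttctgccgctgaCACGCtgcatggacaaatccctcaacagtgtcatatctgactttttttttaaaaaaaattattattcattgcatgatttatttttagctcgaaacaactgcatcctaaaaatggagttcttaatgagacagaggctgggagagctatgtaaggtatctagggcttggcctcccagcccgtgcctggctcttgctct

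Pln held 1 match, 42 bases before the start, Casq2 held 1, 146 bases before it, and Ryr2 held 2, at 244 and 73 bases. Slc8a1 held 1, at 243 bases, while the promoters of Casq1 and Jph2 held 0. The promoters also differed in base composition, with a GC content of 36.0% for Pln, 44.7% for Casq2 and 65.3% for Ryr2, beside a median of 52.7% over all promoters. TATTTATA or TATTTTTA, forms of the element bound by the muscle factor MEF2, occurred in Casq2 and Slc8a1, 68 and 182 bases before the start, and in 4.3% of all promoters. AGATAA or TGATAA, forms bound by GATA factors, occurred in Pln and Slc8a1, in each at 2 places, and in 18.6% of all promoters. A match shows these letters in this window and nothing about binding.

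The rest of the calcium pathway was described through 4 lists, each gene by its brightest probe set. In none of them did a gene pass the test. The groups did not overlap for 4 of 15 tested partners of the release channel, 1 of 17 pumps and pump regulators, 4 of 14 genes of membrane entry and exchange and 6 of 23 luminal, store-operated and mitochondrial genes, against 16.5% of all tested probe sets. Partners of the release channel had 8 of 15 tested genes below 0 (55.6% of all tested probe sets) and a median log2 fold change of -0.05. Fkbp1a, a binding protein of ryanodine receptors and the brightest of the list, had 2167 ± 102 in hypoxia and 2141 ± 126 in normoxia (log2 fold change 0.02, SE 0.10). Its relative Fkbp1b, the form that binds Ryr2 and named here after its values were seen, had 154, 91.2 and 80.5 in hypoxia, against 56.2, 77.9 and 47.2 in normoxia, without overlap (0.82, SE 0.28). Also named after their values were seen, the luminal calcium-binding protein sarcalumenin (Srl) had -0.53 (SE 0.15) and the potassium channel Tmem38b of the store membrane -0.42 (SE 0.13), both without overlap. The dim kinase gene Camk2a, named in the same way, had -0.77 (SE 0.39), also without overlap.

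Other pumps and pump regulators had 12 of 17 genes below 0, with a median of -0.08, and the phosphatase subunit Ppp1cc, the brightest, had 0.07 (SE 0.09). The only tested gene of this list without overlap, the pump Atp2a3, named after its values were seen, had -0.89 (SE 0.28) and did not pass. The pump Atp2b4, under the filter and untested, had 6.6, 6.3 and 3.1 in hypoxia, against 17.5, 17.2 and 15.9 in normoxia, also without overlap. Median centring put the medians of the release channel partners and of the pumps at 0.06 and 0.03. The list of membrane calcium entry and exchange, not limited to the cell membrane or to calcium carriers, had 13 of 14 genes below 0. Its median was -0.60 (-0.49 after median centring). Its brightest gene, the sodium pump subunit Atp1b1, had -0.12 (SE 0.10). Cav3, the muscle caveolin, had 272, 265 and 377 in hypoxia, against 475, 450 and 595 in normoxia (-0.74, SE 0.18). Fxyd1, phospholemman, which acts on the sodium pump, had 383, 335 and 309 in hypoxia, against 410.0, 574 and 571 in normoxia (-0.59, SE 0.17). Both were named after their values were seen, as were the calcium channel subunits Cacna2d1 at -0.61 (SE 0.20) and Cacnb2 at -0.20 (SE 0.15). The groups of these genes did not overlap, and 0 of them passed. The luminal buffers of all cells, store-operated entry and mitochondrial uptake had 11 of 23 below 0 and a median of 0.01 (0.12 after median centring), with the mitochondrial channel Vdac2, the brightest, at 0.05 (SE 0.09). Its 6 genes without overlap, named after their values were seen, went both ways, with the chaperone Canx (0.32) and Rcn3 (0.38) above 0 and Calr3 (-0.43), Rcn1 (-0.24), Rcn2 (-0.24) and Letm1 (-0.36) below.

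**Figure D4:**
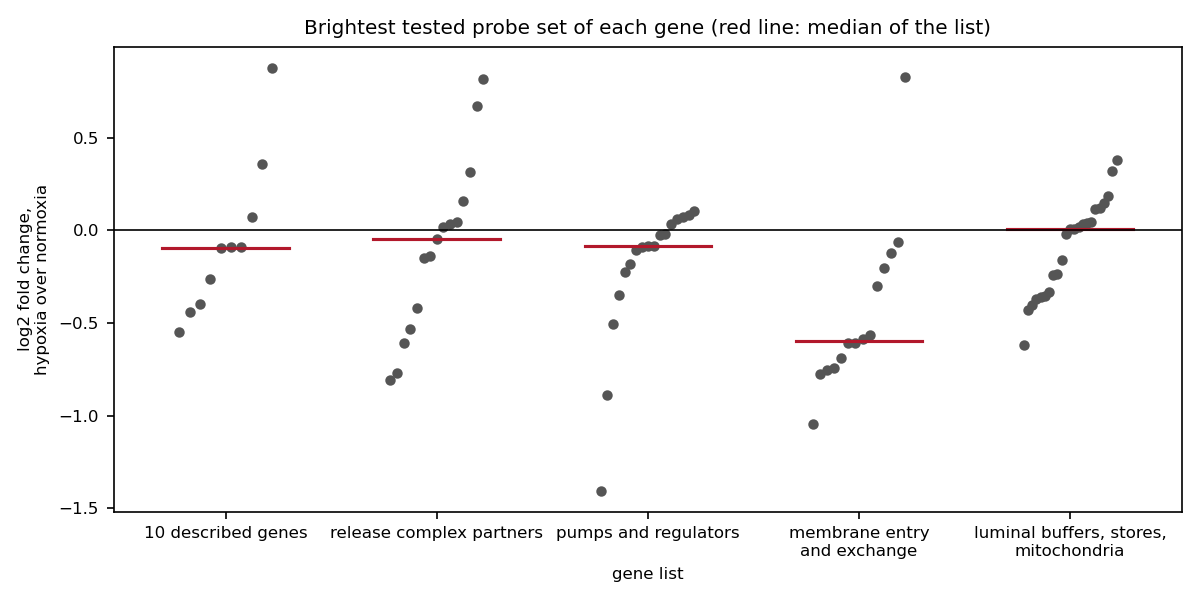
Log2 fold change of hypoxia over normoxia (y axis) of the brightest tested probe set of each gene, for the 10 genes described and 4 lists of other calcium genes (x axis), with the median of each list as a red line. Genes of the list of membrane entry and exchange lie mostly below 0, with a median of -0.60, and the other medians lie between -0.09 and 0.01.

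The genes whose course over the 6 arrays was closest to a member were found by the root mean square difference of log2 signals, each centred on its own mean, among 11331 other genes. Closest to Pln were Hibch (0.04), Gm8579 (0.06) and Sema4a (0.07), where Pln itself had an SD of 0.40 over the arrays. For Ryr2 they were Tradd (0.05), 4930481B07Rik (0.05) and Cdc42ep1 (0.06), with an SD of 0.26 for Ryr2. For the brightest probe set of Atp2a2, which hardly varied (SD 0.07), they were Ddx18 (0.02), Psmg2 (0.03) and Trmt10c (0.03). How close the nearest of 11331 genes come by chance over 6 arrays was not tested.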

How the data were processed

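Each probe set had 1 deposited intensity per array, on a linear scale, which the authors made with MAS5 per the submitters' processing notes; version and settings are not stated there. The trimmed mean signal was 99.5 on each array, so no further scaling was applied. Signals of 0 (10 values) were set to 0.1 before taking log2. Probe sets above the median mean log2 signal were tested in limma 3.58.1 (R 4.3.3; lmFit, eBayes with trend, two-sided, no covariates), with Benjamini-Hochberg adjustment over all 22518. SE and intervals are limma's moderated ones. Gene names came from the platform annotation, in which 34945 probe sets had 1 symbol. The number of arrays limits the precision. No 2 arrays were identical (15 pairs compared). The procedure was tested on simulated data.

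All probe sets of the 10 members are named. Of each of the 4 lists of other calcium genes, the brightest gene that did not pass is named; no gene passed. Markers were named, after their values were seen, where the groups did not overlap or where they went the other way, or as defining genes under the filter. Members and lists were chosen with earlier results of these data known. Alternatives were an offset of 2.9, quantile normalization, median centring, other filters, eBayes without trend, a block for the replicate number, array weights and leaving out each array. Same-numbered arrays deviated from their group means with correlations of -0.0763, 0.207 and -0.136. Differently numbered ones had values between -0.3 and 0.319, so these correlations cannot decide whether the numbers pair the arrays.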

Additional observations from a re-analysis of the deposited data

How the results depend on the processing

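The call count over all probe sets, 137, was 18 with eBayes without trend (2 lower), 437 with array weights (125 lower) and between 39 and 200 with 1 array left out. Of the 30 member probe sets, 3 were called with array weights (2 of Atp2a2, 1 of Pln) and between 0 and 3 with 1 array left out, the 3 being those of Pln without hypoxia replicate 3; under the other alternatives 0 were. The median over the members was 0.0165 after median centring and lay between -0.171 and -0.0627 with 1 array left out. On the brightest probe sets, median centring turned the sign of Atp2a2 (0.0223), Trdn (0.0197) and Jph2 (0.0133). Leaving out 1 array gave ranges of -0.0627 to 0.260 for Ryr2, -0.253 to 0.0840 for Trdn and -0.344 to 0.0657 for Jph2, while Sln stayed between 0.61 and 1.01, Pln between -0.76 and -0.42, Slc8a1 between -0.44 and -0.11 and Casq2 between -0.47 and -0.40. The cause of these changes was not tested. With the replicate number as a block, 105 probe sets were called over the whole array and 0 of the members. Whether the numbers pair the samples is not known. The difference of log2 Pln and log2 Atp2a2 lay between -0.67 and -0.31 with 1 array left out and that of Sln and Atp2a2 between 0.72 and 1.12. With 3 arrays a group, a member's moderated SE of 0.23 (median) limits which differences can pass. Sln, Slc8a1 and Casq1 have no value under the filter at the 75th percentile.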
